A study of Homo sapiens with 288 samples.

Results

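The genes described here are the amino acid transporters of 7 solute carrier (SLC) families: SLC1, SLC3, SLC6, SLC7, SLC36, SLC38 and SLC43. They were chosen by name, as every row of the count tables whose gene symbol consisted of 1 of those family names followed by A and a number, which gave 56 of 17492 protein-coding genes. No measured value entered that choice. Carriers of other substrates that belong to these families, such as the creatine carrier SLC6A8, were kept.

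The libraries were made from single H1 human embryonic stem cell derivatives captured on a Fluidigm C1, an instrument that isolates cells and amplifies full-length cDNA from each one. Endothelial cells (EC) were derived with BMP4 at 5 ng/ml and Activin A at 25 ng/ml in E8 medium for 2 days, and then with VEGF and a WNT supplement for 3 days. Trophoblast-like cells (TB) were derived in E7, which is E8 without FGF2, with BMP4 at 50 ng/ml and SB431542, an inhibitor of Activin and TGF-beta receptors. The same cDNA of 96 cells, 45 EC and 51 TB, was brought to an equal input and sequenced in 3 experiments. EQ was pooled at equal volume, EQ-Vary was pooled for uneven depth, and EQ-75% was a repeat of EQ at lower depth. The libraries of the 3 experiments therefore hold the same cells and are not separate cultures, and no label names a separate culture within a cell type. The study describes EQ-Vary as differing from EQ in pooling and does not state whether it had a library preparation of its own. Both cell types come from 1 stem cell line, so each was treated as 1 sample, and no test of EC against TB was possible. SDs given below are between cells. Poisson intervals on counts cover counting error only. Intervals on shares of cells treat the cells of a type as independent draws, and they do not cover differences between cultures.

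Of the 96 cells, 38 EC and 48 TB passed quality limits in EQ, with a median total count of 2025145 in EC and 1968545 in TB and a range of 365570 to 3966801 over both. The endothelial label was borne out by PECAM1 (1317 ± 883 CPM, the count scaled to a library total of 1000000, SD, n = 38 EC), KDR and CDH5, whereas CLDN5 and ROBO4 had means of 4.84 and 1.19 CPM in EC. In TB, 8 of 9 trophoblast markers with a mean of at least 5 CPM were at least 2-fold higher than in EC, HAND1 and VTCN1 among them, but the hormone genes CGA and CGB5 had means of only 2.93 and 0.635 CPM. The summed trophoblast markers overlapped between the types, with 2375 to 12184 CPM per TB cell and 61.6 to 3963 CPM per EC cell. EC held KRT18 at 327, KRT8 at 137 and GATA3 at 120 CPM, against 1926, 1259 and 236 CPM in TB. Mesenchymal genes were also abundant in TB. LUM, COL3A1, COL1A1, PDGFRA and TBX20 summed to 610 to 9693 CPM per TB cell and 2.46 to 448 CPM per EC cell, with no overlap, and the part of that difference in the results below was not tested. LUM, COL3A1 and COL1A1 carried that sum in TB, with means of 3042, 735 and 280 CPM, whereas PDGFRA was at 7.28 CPM in TB and 11.8 CPM in EC. Of 6 pluripotency markers at 5 CPM or more, 3 were higher in EC and 1 in TB, with LIN28A at 279 and 287 CPM, and of 3 neural markers OTX2 alone reached 5 CPM, with a count in 7 EC cells. Markers of the other cell type were not fully absent. For 7 endothelial markers (PECAM1, CDH5, KDR, TEK, ERG, ESAM and EGFL7), chosen after their values were seen, the mean in TB was 0.163% to 2.24% of the EC mean, and KDR reached a count of 1 in 48 of 48 TB cells. LUM, COL3A1, VTCN1, HAND1 and ENPEP, chosen likewise, had EC means at 0.319% to 0.804% of their TB means. Other listed markers lay outside these ranges. The TB to EC ratio was 0.0294 for EMCN and 0.00142 for TIE1, and the EC to TB ratio was 0.170 for KRT18 and 0.00133 for KRT7. The ranges thus follow from the choice of markers and set no limit of expression. Levels of that order in the lower cell type are given below without being read as expression.

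Amino acid carriers divide the work of moving polar nutrients across the plasma membrane and out of the lysosome. System A carriers (SLC38A1, SLC38A2 and SLC38A4) and the glutamate carriers of SLC1 concentrate their substrates with sodium. The SLC7 light chains mostly exchange 1 amino acid for another and need a heavy chain from SLC3 to reach the cell surface. Several of these genes are known targets of ATF4, the transcription factor of the amino acid response, which binds composite C/EBP-ATF elements. The trophoblast uses sodium-coupled uptake on one face and exchange on the other to pass amino acids to the fetus, and endothelial cells are known for their use of glutamine, cystine and arginine.

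The core of that element, TGATGNAA, was searched on both strands in RefSeq promoter windows (GRCh38.p14) reaching from 250 bases before to 50 bases after an annotated start. Of the 56 genes, 42 had such a window, and 6 of those 42 (14.3%) held a match, against 457 of 12986 genes (3.52%) in the whole table. The 6 windows are shown because they belong to genes whose levels are compared below, 3 of them higher in EC (SLC1A4, SLC1A5 and SLC7A1), 2 higher in TB (SLC1A3 and SLC38A1) and 1 under 2-fold apart (SLC3A2). Each line gives the bases around the match on the coding strand, with the match in capitals.
SLC1A3, chr5:36596357-36596386, plus strand: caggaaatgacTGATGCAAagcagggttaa
SLC1A4, chr2:64989381-64989410, plus strand: gcggctcccgtTTGCATCAtctccagccgg
SLC1A5, chr19:46784893-46784922, minus strand: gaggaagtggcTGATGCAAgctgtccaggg
SLC38A1, chr12:46266502-46266531, minus strand: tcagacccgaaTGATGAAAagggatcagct
SLC3A2, chr11:62881725-62881748, plus strand: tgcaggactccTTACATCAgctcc
SLC7A1, chr13:29595663-29595692, minus strand: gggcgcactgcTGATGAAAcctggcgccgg
The matches in SLC1A4 and SLC3A2 read TTGCATCA and TTACATCA on the coding strand, which is the motif on the opposite strand. A match is a string in this window and not a measured binding site, and genes with and without one are found on both sides of the EC to TB comparison.

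Which amino acid carriers differ between the 2 cell types was asked first. A gene was called higher in a cell type when its mean CPM in EQ was at least 2-fold that of the other, among genes whose mean over both types was at least 5 CPM. Of the 56 genes, 31 reached that level, 8 of them were at least 2-fold higher in EC (25.8%) and 11 at least 2-fold higher in TB (35.5%), and 12 were neither. Over all 10266 genes tested the same rule called 17.4% higher in EC and 23.1% higher in TB. With 31 genes, the higher shares among the carriers are not read as particular to them. The median log2 ratio of EC to TB was 0.34 over the 31 genes and -0.04 over all genes tested. All 19 called genes were on the same side in EQ-Vary and EQ-75%. Both rest on the same cDNA as EQ. EQ-75% repeats the library preparation, whereas the study describes EQ-Vary as differing from EQ in pooling.

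**Figure D1:**
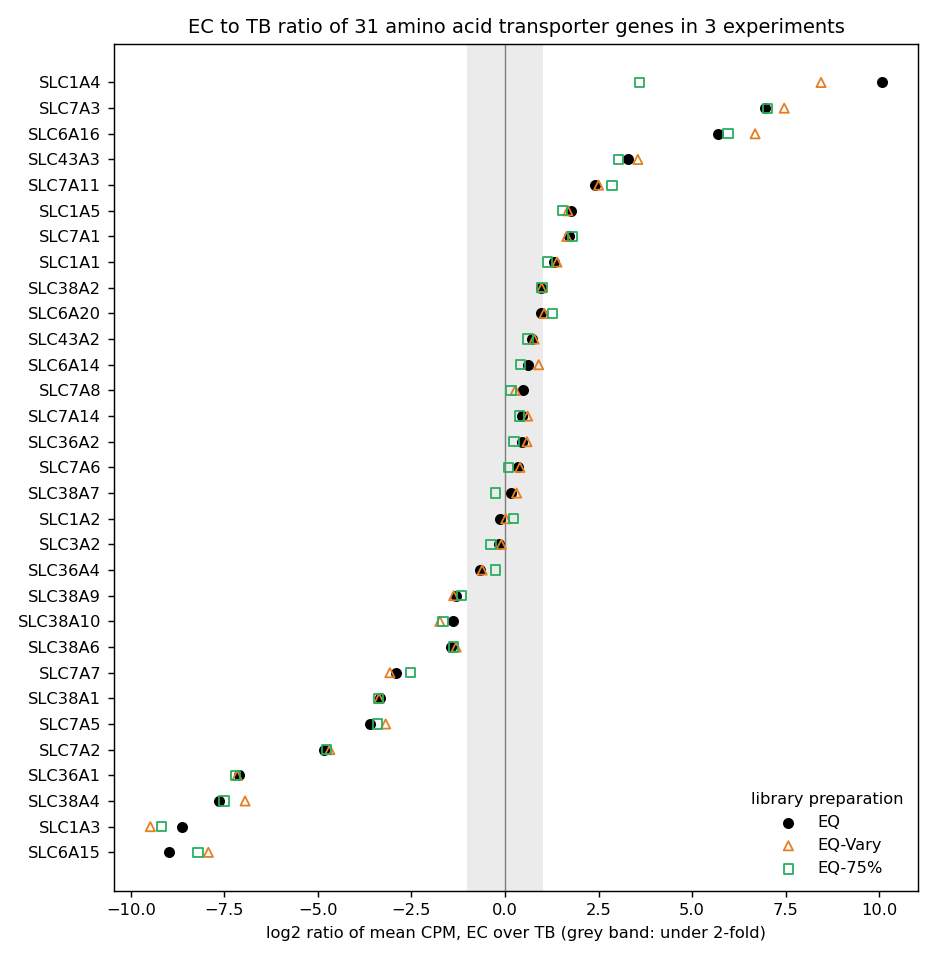
Log2 ratio of mean CPM in EC over TB for the 31 carriers with a mean of at least 5 CPM in EQ, sorted by the EQ value (filled circle), with EQ-Vary (triangle) and EQ-75% (square). The grey band marks ratios under 2-fold, and SLC1A4 shows the widest gap between experiments, with a log2 ratio of 10.07 in EQ and 3.60 in EQ-75%.

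The heavy chain SLC3A2, also known as 4F2hc or CD98, pairs with most light chains and was under 2-fold apart between the cell types. Its level was 106 ± 148 CPM in EC (lowest 0, median 51.9, highest 713, n = 38) and 119 ± 157 CPM in TB (lowest 0.335, median 52.5, highest 657, n = 48). The ranges overlapped almost entirely, and the ratio of TB to EC was 1.12 (EQ), 1.07 (EQ-Vary) and 1.29 (EQ-75%). The side of that small difference was not stable, since the log2 ratio of EC to TB was -0.17 in CPM and 0.05 with median-of-ratios size factors. The other heavy chain, SLC3A1 (rBAT), which partners SLC7A9 in cystine uptake, had means of 0.0663 CPM in EC and 1.27 CPM in TB, with a count in 1 of 38 and 8 of 48 cells. SLC3A1 also shared 27.2% of its 51-base words, 1794 of 1799 of them with the gene PREPL, so that part of those counts cannot be assigned to it.

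Among the light chains of SLC3A2, SLC7A5, SLC7A7 and SLC7A11 differed more between the cell types than the heavy chain. SLC7A6 and SLC7A8 were under 2-fold apart, as was SLC3A2. Levels of different genes were compared per kb of exon. SLC7A7 (y+LAT1), which exchanges cationic for neutral amino acids, made up 72.7% of the summed level of 6 light chains in TB (29.7 of 40.8 CPM per kb) and 19.1% in EC. SLC7A11 (xCT), which takes up cystine for glutamate, made up 41% in EC (8.47 of 20.7 CPM per kb) and 3.95% in TB. Cell by cell, SLC7A11 was the highest light chain per kb in 23 of 38 EC and SLC7A7 in 28 of 48 TB. In EQ-75% the same genes led in 26 of 39 EC and 28 of 50 TB. Counts of SLC7A11 include reads divided between genes, and what part of its lead rests on them was not tested. SLC3A2 itself stood at 31.5 CPM per kb in EC and 35.4 in TB, and it exceeded the summed light chains in 16 of 38 EC and 21 of 48 TB.

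**Figure D2:**
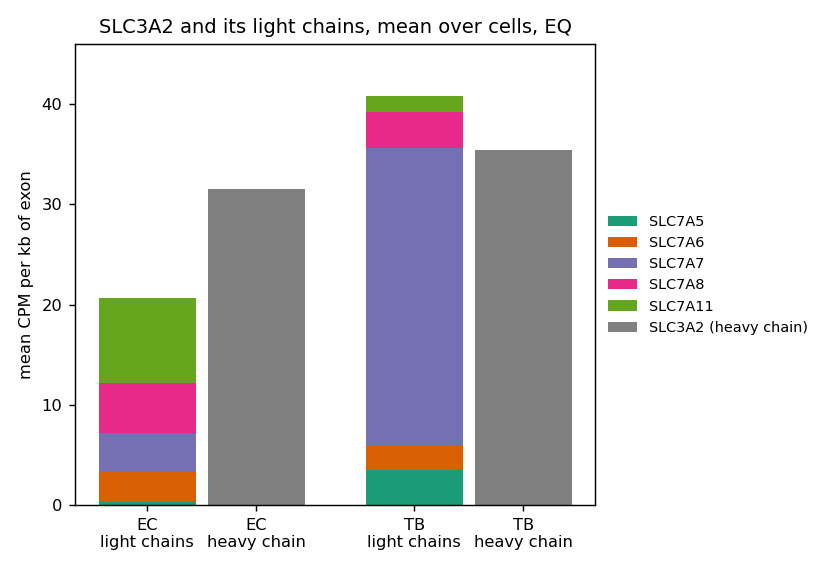
Mean CPM per kb of exon in EQ of 5 light chains (stacked bars) and of their heavy chain SLC3A2 (grey bars) over 38 EC and 48 TB cells, with SLC7A10 left out because no cell had a count. The heavy chain bars are of like height, 31.5 and 35.4, while SLC7A7 fills most of the TB stack and SLC7A11 the largest part of the EC stack. Counts of SLC7A11 include reads divided between genes.

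SLC7A7 was 7.52-fold higher in TB, at 110 ± 163 CPM (lowest 0, median 21.3, highest 681) against 14.7 ± 37.6 CPM in EC (lowest 0, median 0.431, highest 177). It was at 100 CPM or more in 17 of 48 TB and 2 of 38 EC, and 10 TB cells lay above the highest EC cell. Among TB cells it had the widest spread of the carriers, with an SD of 3.03 on the log2(CPM + 1) scale, which exceeded that of 99.5% of the 200 genes nearest to it in mean. SLC7A8 (LAT2, a neutral amino acid exchanger) was under 2-fold apart. It was at 23.5 ± 86.1 CPM in EC and 16.9 ± 35 CPM in TB, and 56.8% of the EC sum came from EC cell 15, so that leaving out the highest cell of each type turned the EC to TB ratio from 1.39 to 0.736.

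SLC7A5 (LAT1), the main importer of large neutral amino acids in many dividing cells, was low in both types and 12.1-fold higher in TB, or 20.8-fold without the highest cell of each type, EC cell 35 holding 53.2% of the EC sum. It reached 16.5 ± 31.9 CPM in TB (median 2.36, highest 154) and 1.36 ± 5.02 CPM in EC (median 0, highest 27.4). A count was found in 36 of 48 TB (75.0%, exact interval 60.4% to 86.4%) and 6 of 38 EC (15.8%, 6.02% to 31.3%), and thinning every cell to 1000000 counts left mean shares of 69.5% in TB and 14.2% in EC. SLC7A6 (y+LAT2) was at 20.7 ± 58.5 CPM in EC and 16.4 ± 58.6 CPM in TB, and 47.3% of its 51-base words were shared with the overlapping gene SLC7A6OS. No count of SLC7A10 was found in either type, SLC7A9 was met in 1 cell of each type, and SLC7A13 in 1 EC cell.

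SLC7A11 was 5.26-fold higher in EC by its mean, and this rested on a few cells. In EC it was at 81.7 ± 157 CPM (lowest 3.89, median 21.6, highest 620), with 6 of 38 cells at 100 CPM or more and the other 32 at 72.8 CPM or less. In TB it was at 15.6 ± 12.3 CPM (lowest 2.06, median 12.4, highest 62.3). The medians of 21.6 and 12.4 CPM were thus much closer than the means, and 7 EC cells lay above the highest TB cell. In EQ-75% the ratio was 7.27, or 6.24 over the cells that passed in all 3 experiments, since EC cell 1 passed only there, at 1189 CPM. Of its nonzero values 98.8% were not whole numbers, which means that they held reads divided between genes, as described below. The rank correlation of SLC3A2 with its light chains over cells was weak, from -0.16 to 0.45 in either type and any of the 3 experiments (n = 38 to 50 cells), and for SLC7A11 it was 0.13 in EC and 0.00 in TB in EQ.

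The cationic branch of SLC7, whose members carry arginine and lysine without a heavy chain, was split between the cell types. SLC7A1 (CAT1) was 3.26-fold higher in EC, at 58.4 ± 123 CPM (lowest 0, median 10.1, highest 579) against 17.9 ± 40.2 CPM in TB (lowest 0, median 1.27, highest 184). SLC7A2 (CAT2) was 28.5-fold higher in TB (45.5-fold without the highest cell of each type, of which EC cell 3 held 45.7% of the EC sum), at 21.1 ± 33.8 CPM (lowest 0, median 3.82, highest 130) against 0.741 ± 2.86 CPM in EC (median 0, highest 12.9). Its 17 highest TB cells lay above every EC cell. Per kb, SLC7A2 exceeded SLC7A1 in 26 of 48 TB and in 2 of 38 EC, and both genes had nearly the same mean level in TB, 2.67 and 2.42 CPM per kb.

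SLC7A3 (CAT3) passed the rule for EC on the strength of 1 cell. EC cell 38 held 449 CPM, 99.0% of the EC sum, and the same cell held 480 CPM in each of the other experiments. Among the other EC cells the highest value was 2.78 CPM. Without the highest cell of each type the mean no longer reached 5 CPM. SLC7A4, an orphan of this branch, had a mean of 4.64 CPM in TB and 0.0256 CPM in EC and stayed under the level for a call, with 55.9% of its TB sum in TB cell 12.

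In the SLC1 family 1 glutamate carrier, SLC1A3, was higher in TB, while the glutamate carrier SLC1A1 and the neutral carriers SLC1A4 and SLC1A5 were higher in EC. SLC1A3 (EAAT1, glutamate and aspartate) was at 62.4 ± 77.5 CPM in TB (lowest 0, median 40.9, highest 432) and at 0.157 ± 0.314 CPM in EC (median 0, highest 1.26). It was detected in 47 of 48 TB, 41 TB cells lay above the highest EC cell, and the TB to EC ratio was 398 in EQ, and 714 and 579 in the EQ-Vary and EQ-75% libraries. The EC mean rested on 12 counts in all (exact Poisson interval 6.20 to 21), 0.251% of the TB level. That is the order of the foreign markers chosen above, which set no limit of expression. SLC1A1 (EAAT3, glutamate and cysteine) was 2.46-fold higher in EC, at 21.5 ± 59.5 against 8.74 ± 21.4 CPM, but the medians were 0.50 and 0.497 CPM and its log2(CPM + 1) means were under 2-fold apart. Per kb, SLC1A3 exceeded SLC1A1 in 42 of 48 TB and 5 of 38 EC.

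SLC1A5 (ASCT2), the principal glutamine carrier of this family, was 3.40-fold higher in EC. It was at 122 ± 149 CPM in EC (lowest 0.417, median 70.3, highest 641) and 35.9 ± 62.6 CPM in TB (lowest 0, median 1.82, highest 265). All 38 EC and 37 of 48 TB had a count, and 16 EC but 5 TB were at 100 CPM or more. Per kb it was the second highest carrier in EC, at 36.6 CPM per kb.

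SLC1A4 (ASCT1, alanine, serine and cysteine) was present in part of the EC and practically missing from TB. In EC it was at 74.3 ± 153 CPM (lowest 0, median 0.887, highest 578), and 18 of 38 EC lay above the highest TB cell, which was at 1.01 CPM. The 48 TB cells held 7 counts together (exact Poisson interval 2.81 to 14.4), which put the EQ ratio at 1077. It was 349 from EQ-Vary libraries and 12.1 from EQ-75% libraries. The lower value came from TB cell 28, which failed the limits in EQ with a total count of 12434 and passed in EQ-75%, where it was at 297 CPM; over the cells that passed in all 3 experiments the EQ-75% ratio was 428. SLC1A4 had the largest spread of any carrier in EC, with an SD of 3.28 on the log2(CPM + 1) scale, above 99.5% of the 200 genes of like mean.

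**Figure D3:**
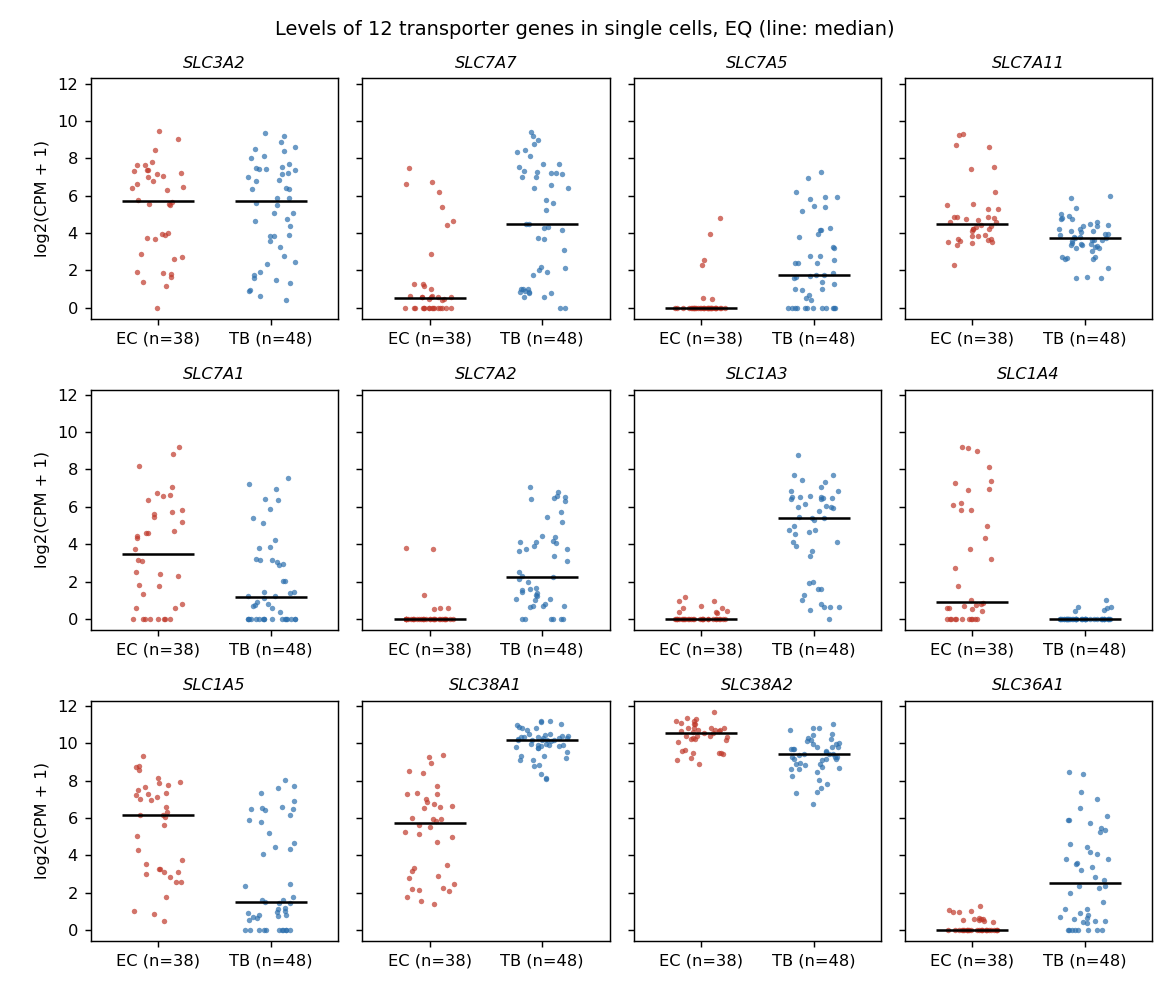
Log2(CPM + 1) of 12 carriers in each of 38 EC (red) and 48 TB (blue) cells in EQ, with a line at the median. SLC38A1, SLC38A2, SLC7A11 and SLC3A2 were found in nearly every cell of both types, SLC1A3 and SLC36A1 stayed at 1.43 CPM or less in every EC cell, and SLC1A4 stayed at 1.01 CPM or less in every TB cell.

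SLC1A4, SLC1A5, SLC7A1 and SLC7A11 had their highest value in the same cell, EC cell 27, at 578, 641, 579 and 620 CPM. That cell was 13th of 38 in total count, with 2152123, and first in summed carrier CPM, with 6278. Leaving out the highest cell of each type changed the 4 ratios to 1240, 3.48, 3.08 and 4.62, so none of the 4 calls rested on it. SLC1A2 and SLC1A6 had flat low levels in both types and are treated with the genes that share reads, and no cell had a count of SLC1A7.

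System A was the largest part of the transcripts measured here. SLC38A2 (SNAT2), the system A carrier that amino acid shortage induces in many cells, was at 1497 ± 653 CPM in EC (lowest 472, median 1515, highest 3309) and 764 ± 461 CPM in TB (lowest 108, median 675, highest 2088). The EC to TB ratio of 1.96 lay just under the rule, as did 1.97 in EQ-Vary and 1.98 in EQ-75%. It passed the rule with scran or median-of-ratios size factors and as a mean of log2(CPM + 1), with log2 ratios of 1.05, 1.05 and 1.10, and 8 EC cells lay above every TB cell. SLC38A1 (SNAT1) was 10.2-fold higher in TB, at 1159 ± 530 CPM (lowest 273, median 1138, highest 2337) against 114 ± 167 CPM in EC (lowest 1.59, median 51.8, highest 665). Of 48 TB cells, 38 lay above the highest EC cell, and only 5 EC cells reached the lowest TB value. Every cell of both types had a count of SLC38A1. Its SD in TB was 0.75 on the log2(CPM + 1) scale, above that of 51.5% of the 200 genes of like mean.

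Together SLC38A1 and SLC38A2 held 64.9% ± 13.7 of the summed carrier CPM of an EC cell and 68.3% ± 14.7 of that of a TB cell (SD between cells). Per kb, SLC38A2 was 25.8-fold above SLC38A1 in EC and higher in each of the 38 cells, whereas in TB it was 1.29-fold above and higher in 29 of 48. Both genes lie on chromosome 12 (GRCh38), SLC38A1 at 46183063 to 46270017 and SLC38A2 at 46358188 to 46372773, both on the minus strand. The next family member there, SLC38A4 (SNAT4), at 46764761 to 46832408, is a system A carrier known from placenta and liver. It had 11.8 ± 33 CPM in TB (median 0, highest 177) and 0.0590 ± 0.165 CPM in EC, with 7 counts in all EC together (exact Poisson interval 2.81 to 14.4) and a count in 19 of 48 TB. Its TB to EC ratio was 200.4, and 123 and 182 in the EQ-Vary and EQ-75% libraries. The order in TB was thus SLC38A2 and SLC38A1, which overlapped, and then SLC38A4 far below them, at 2.85 CPM per kb.

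SLC38A9, SLC38A10 and SLC38A6 were higher in TB at lower levels, whereas SLC38A7, at 41.2 ± 65.1 CPM in EC and 37.1 ± 63 CPM in TB, was not called. SLC38A9, a lysosomal carrier and arginine sensor of the mTORC1 pathway, was 2.48-fold higher in TB, at 42.2 ± 72.9 CPM (median 7.03, highest 415) against 17.0 ± 55.2 CPM in EC (median 0.615, highest 297). From summed counts in place of mean CPM the ratio was 1.82 and did not reach the rule. SLC38A10 was 2.61-fold higher in TB, at 12 ± 20.7 against 4.60 ± 12.9 CPM, with a count in 31 of 48 TB and 13 of 38 EC. SLC38A6 was 2.72-fold higher in TB, at 10.3 ± 24.9 against 3.79 ± 11.3 CPM, and its median was 0 in both types. In all, 5 of the 7 SLC38 genes at 5 CPM or more were at least 2-fold higher in TB and none in EC, beside 23.1% and 17.4% of all genes tested, and no count of SLC38A8 was found.

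Among the proton-coupled SLC36 carriers, SLC36A1 (PAT1), which exports small neutral amino acids from lysosomes, was found in TB and hardly in EC. It was at 33.2 ± 72.5 CPM in TB (lowest 0, median 4.77, highest 345) and 0.241 ± 0.391 CPM in EC (median 0, highest 1.43), 137-fold apart, or 206-fold in EQ-75% over the cells that passed in all 3 experiments. A count was met in 40 of 48 TB and 13 of 38 EC, but in EC these were 17 counts in all, and 29 TB cells lay above the highest EC cell. SLC36A4 (PAT4) was high in both, at 45.8 ± 66.6 CPM in EC and 72.9 ± 83.1 CPM in TB, and it exceeded SLC36A1 per kb in 37 of 38 EC and 35 of 48 TB. SLC36A2, which lies near SLC36A1 on chromosome 5, was at 29.1 ± 21.9 and 21.2 ± 13.7 CPM, nearly all of its values being not whole.

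Of the 17 SLC6 genes, carriers of neurotransmitters and neutral amino acids, 13 stayed under 5 CPM and 4 of those had no count in any cell. SLC6A15 (B0AT2, branched-chain amino acids and proline) was at 42.6 ± 101 CPM in TB (lowest 0, median 0.781, highest 440) and 0.0841 ± 0.214 CPM in EC, a ratio of 506 that rested on 7 counts in EC and was 243 and 295 in the EQ-Vary and EQ-75% libraries. It was at 10 CPM or more in 14 of 48 TB and at 0 in 18, a spread above 98.5% of genes of like mean. SLC6A16, an orphan carrier, was 51.8-fold higher in EC, at 15.9 ± 48 CPM (median 0, highest 242.5) against 0.307 ± 1.18 CPM, with 40.2% of the EC sum in EC cell 16 and 51.3% of the TB sum in TB cell 9. The ratio was 103 and 62.2 in the EQ-Vary and EQ-75% libraries, and 111 in EQ over the cells that passed in all 3 experiments, which leave out TB cell 9. Leaving out the highest cell of each type put its mean over both types under 5 CPM. SLC6A20 had an EC to TB ratio of 1.95 in EQ, under the rule, but of 2.07 and 2.40 in the EQ-Vary and EQ-75% libraries, past it. SLC6A14 had a ratio of 1.53, and SLC6A8 had means of 2.66 and 0.346 CPM.

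In SLC43, SLC43A3 was 9.82-fold higher in EC, at 15.0 ± 34.4 CPM (median 0.617, highest 171) against 1.53 ± 10.3 CPM in TB (median 0, highest 71.3). It is known as a carrier of purine bases and not of amino acids. A count was found in 22 of 38 EC (57.9%, exact interval 40.8% to 73.7%) and 5 of 48 TB (10.4%, 3.47% to 22.7%), and TB cell 37 held 97.0% of the TB sum, so that the ratio became 234 without the highest cell of each type. SLC43A1 (LAT3) had a count in 5 EC and no TB cell, under 5 CPM. Of the 25 genes under 5 CPM, 7 had no count in either type (SLC1A7, SLC6A2, SLC6A5, SLC6A11, SLC6A18, SLC7A10 and SLC38A8). Taking 3 cells as the limit that a count of 0 allows, the share of cells with a count could be up to 7.89% of 38 EC and 6.25% of 48 TB, and the exact binomial interval reaches 9.25% and 7.4%.

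RSEM divides a read that fits several genes among them, so a value that is not whole holds at least 1 such read. Of the genes with at least 10 nonzero values in EQ, 31.2% had 90% or more values not whole, to a tolerance of 0.005. Among the carriers 11 did: SLC1A2, SLC1A6, SLC6A14, SLC6A20, SLC7A11, SLC7A14, SLC36A2, SLC36A3, SLC38A2, SLC38A7 and SLC43A2. Of the 9 that reached 5 CPM, SLC7A11 alone was called in EQ, with EC to TB ratios of 0.908 to 1.96 for the others, although SLC6A20 passed 2-fold in the other experiments and SLC38A2 did with other size factors, as given above. Of the other 22 carriers at that level, 18 were called in EQ. Over all genes tested, 17.4% were called higher in EC and 23.1% in TB, without regard to that cut. The shares called on each side of the cut are not given here for all genes. The contrast is therefore not read as particular to carriers. SLC43A2 shared exact 51-base words with 308 other genes, SLC7A11 with 101, SLC7A14 with 85 and SLC36A2 with 57, whereas SLC38A2 shared none. Counts of the first 4 can therefore include reads of other genes, and what part of their level that is was not tested.

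These genes were also steadier from cell to cell. SLC7A14, a lysosomal member of the cationic branch, was in all 86 cells, at 62.5 ± 32.9 CPM in EC and 45.2 ± 32.4 CPM in TB, with SDs of 0.67 and 1.0 on the log2(CPM + 1) scale where the median of genes of like mean was 1.99 and 2.09. In EC the 9 genes with 90% or more values not whole lay between the 0.5th and 36th percentile of spread. The other 14 lay between 51.5 and 99.5. In TB the range was 4 to 63.5 for 8 genes and 40.5 to 99.5 for 18, and SLC7A11 lay at the 5th percentile. Genes under that cut can hold shared reads as well. SLC3A2, with 89.4% of values not whole, lay at percentile 72 in EC and 88 in TB. Over all genes at 5 CPM or more, the median percentile in EC was 25.0 at 90% or more values not whole and 69.5 under 90%. In TB it was 23.5 and 67.5. The pattern is thus common to the table and not particular to carriers.

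**Figure D4:**
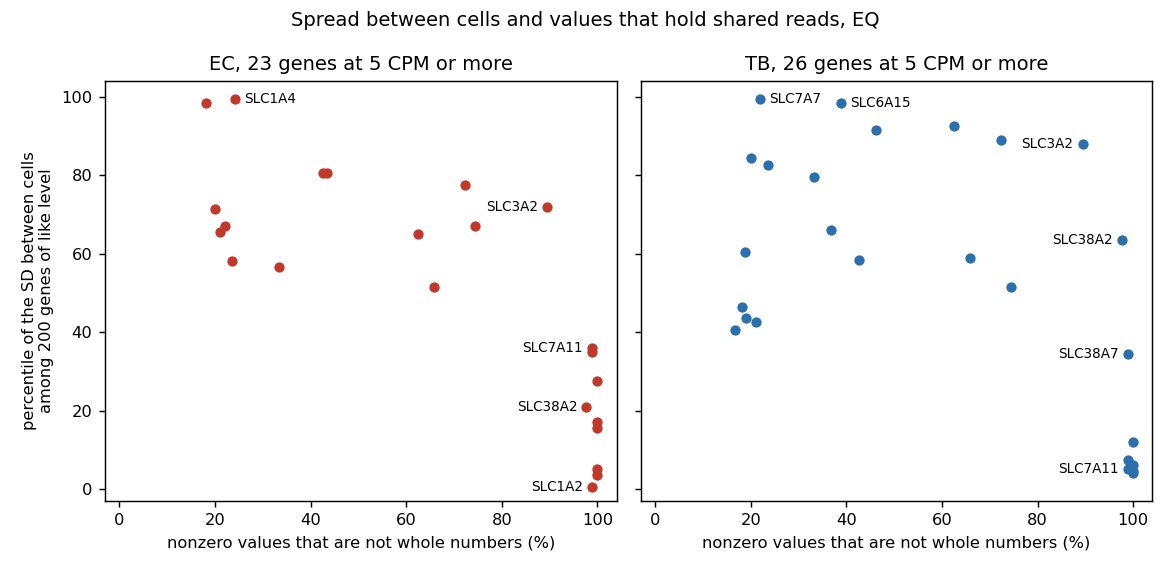
Percentile of the SD of log2(CPM + 1) between cells, among the 200 genes nearest in mean, against the percentage of nonzero values that are not whole, for the 23 carriers at 5 CPM or more in EC (left) and 26 in TB (right) in EQ. Genes at 90% or more lie at 63.5 or lower, SLC38A2 in TB being the highest of them. Below that cut, SLC3A2 at 89.4% lies at 72 in EC and 88 in TB, and SLC1A5 at 72.4% lies at 77.5 and 89. SLC1A4 in EC and SLC7A7 and SLC6A15 in TB lie at the top.

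Whether these levels belong to the cells or to the library preparation was asked by comparing EQ with EQ-75%, which started from the same cDNA. The median correlation of log2(CPM + 1) over cells was 0.959 for the 23 carriers at 5 CPM or more in EC (n = 37 cells) and 0.965 for 26 in TB (n = 47), against 0.965 and 0.969 for all genes at that level. By ranks the carriers' medians were lower, 0.824 and 0.890. Of the 23 and 26 carriers, 16 and 21 were above 0.9. The lowest was 0.38 for SLC6A14 in EC and 0.72 for SLC7A11 in TB, both with shared reads, whereas SLC1A4 reached 0.99 in EC and SLC7A7 0.98 in TB. A cell in which SLC1A4 or SLC7A7 was high in 1 preparation was therefore high in the other, which covers the steps after cDNA amplification but not the capture of RNA in the cell.

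The number of carriers with a count was 22.7 ± 2.36 per EC cell (17 to 28, n = 38) and 24.8 ± 2.46 per TB cell (18 to 30, n = 48) of 56 in EQ. Thinned to 1000000 counts, leaving out 4 shallower cells of each type, it was 20.5 ± 2.04 and 23 ± 2.32. The ranges overlapped widely, and carriers were 0.259% and 0.267% of all genes detected in a cell. The summed CPM was 2458 ± 967 per EC cell and 2749 ± 849 per TB cell, so that the difference was below the spread between cells. Without SLC38A1 and SLC38A2 it was 848 ± 503 and 827 ± 345 CPM.

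Within the same cells, EQ found 2.16 ± 1.91 more carriers than EQ-75% in EC (more in 29, fewer in 1 and equal in 7 of 37 cells) and 1.21 ± 2.39 more in TB (more in 26, fewer in 11 and equal in 10 of 47). EQ-75% had lower totals, with medians of 1499284 in EC and 1765246 in TB. When the deeper library of each pair was thinned to the total of the shallower one, the differences were 1.16 ± 1.49 and 0.961 ± 2.01.

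**Figure D5:**
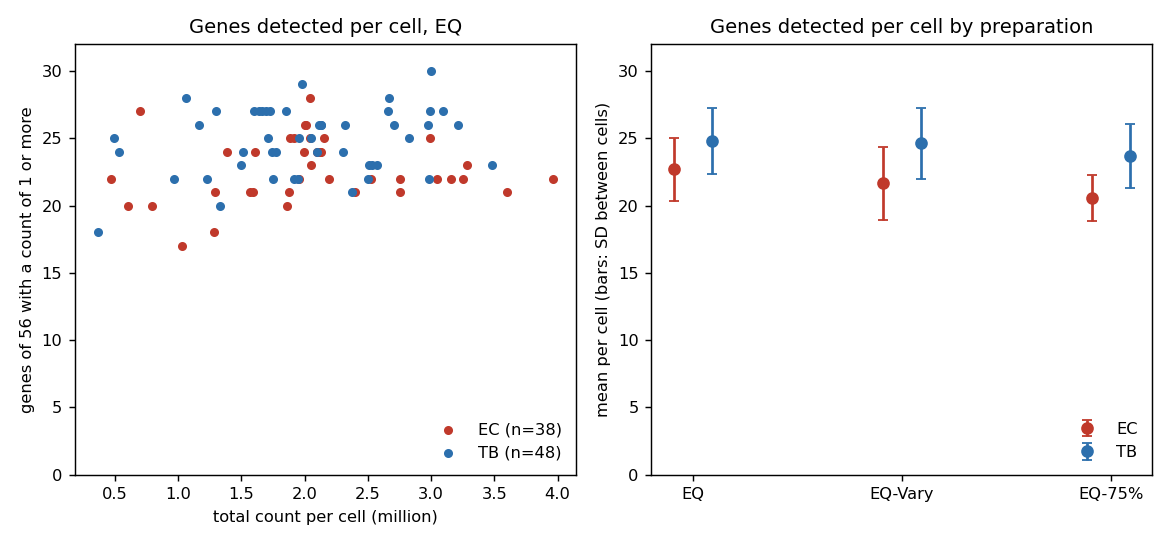
Left, number of the 56 carriers with a count of at least 1 against total count in each of 38 EC (red) and 48 TB (blue) cells in EQ. Right, mean number per cell with the SD between cells in EQ, EQ-Vary and EQ-75%, where TB lies above EC each time and EQ-75% is the lowest for both.

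Genes that make or sense the same amino acids were mixed in direction. Of 16 genes of amino acid synthesis at 5 CPM or more, 6 were at least 2-fold higher in EC and 4 in TB, where 17.4% and 23.1% of all genes tested were. With so few genes, none of the counts that follow is read as particular to its list. Those higher in EC included CTH (cystathionine gamma-lyase, 37.9 against 6.42 CPM, 5.90-fold) and PYCR1 (proline synthesis, 3.54-fold), and the largest TB ratios were for ASS1 (arginine synthesis, 28 against 1.49 CPM, 18.8-fold), PHGDH (serine synthesis, 187 against 39.2 CPM, 4.76-fold) and SHMT1 (3.56-fold). Of 10 genes of the ATF4 and stress response list, 3 were higher in EC (CHAC1 41.3-fold, TRIB3 18.6-fold, DDIT3 3.83-fold) and 3 in TB (ATF3 7.98-fold, STC2 5.38-fold, VLDLR 5.32-fold), and ATF4 itself was at 209 and 198 CPM. For each gene so called, the SD between cells exceeded the mean in the higher type. CHAC1, at 13.1 ± 33.8 CPM in EC, had a count in only 11 of 38 EC and in 17 of 48 TB. STC2, at 10.3 ± 47.7 CPM in TB, had a count in 14 of 48 TB. Of 18 genes of lysosomal amino acid sensing, 3 were higher in EC and 4 in TB. RRAGD (12.9-fold), MTOR (2.32-fold) and FNIP1 (2.07-fold) led in EC, and NPRL3 (3.30-fold), MLST8 (2.49-fold) and LAMTOR3 (2.46-fold) led in TB. Some of these also varied widely between cells, with MTOR at 93.7 ± 231 CPM in EC and NPRL3 at 23.7 ± 92.5 CPM in TB. None of 5 glutathione genes was called in either direction. The median log2 ratios of the 4 lists were 0.46, -0.06, 0.04 and 0.01, beside -0.04 over all genes tested.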

How the data were processed

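Single-cell cDNA of 96 H1-derived cells was sequenced in 3 experiments, 288 libraries in all, and each of the 17492 genes has 1 value per library. The deposited values are expected counts, which the authors made with RSEM 1.2.31 and Bowtie 1.2.3 after trimming reads to 51 bases and mapping them with up to 2 mismatches to protein-coding transcripts of GRCh38; the submitters' processing notes also name CASAVA 1.8.2. RSEM divides a read that maps to several genes, so members of related families can hold reads of each other. The original unequalized libraries were not analysed here.

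Expected counts were rounded to whole numbers. Following the study's limits, cells were kept with a log10 total of at least 5.4 and at most 31% of counts in their 50 most abundant genes. CPM was the count times 1000000 over the total of the library. Doublets were not looked for. With 1 sample per cell type, no p-value was computed, and a gene was called at 2-fold in mean CPM where the mean of both types was at least 5 CPM. Calls were made over the whole table. Intervals (95%) are exact binomial (Clopper-Pearson) over cells or exact Poisson on counts, from scipy 1.17.1. The Poisson ones cover counting error only. The binomial ones treat cells as independent draws and compare no cell types. SDs and correlations used log2(CPM + 1). Thinned detection is the expected number of genes left with a count after drawing 1000000 counts without replacement. Exon lengths and words of 51 bases came from GENCODE on GRCh38, and promoter windows of 300 bases from RefSeq (GRCh38.p14), of which 42 of the 56 genes had one. Size factors were made with scran 1.30.0. Scripts were tested on simulated counts.

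The genes named in the text were those called in EQ with a ratio on the same side in all 3 experiments, the 5 highest per cell type by CPM and the 3 highest per kb, both heavy chains, and the 3 with the largest spread in each type; others were named after their values were seen. Of the other lists, the 3 largest ratios in each direction were named, except for 1 gene that is not reported here. The genes, lists and motif were chosen with earlier results of these data known. The study's methods state that the same cDNA was used in each experiment, and libraries were paired by the cell number in the labels. Over all genes, each of the 37 EC and 47 TB libraries of EQ correlated best with the EQ-75% library of its own number (lowest r 0.951 and 0.945, against at most 0.784 and 0.847 with any other number of its type).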

Additional observations from a re-analysis of the deposited data

How the results depend on the processing

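With 1 sample per cell type no setting carries a test, and depth limits what a count of 0 can show. The count of 8 carriers higher in EC moved to 5 at 4-fold and lay between 6 and 12 under all other settings; the count of 11 higher in TB lay between 8 and 14. Without the highest cell of each type per gene, SLC6A16, SLC7A3 and SLC38A4 fell under 5 CPM and lost their call, and with all 96 cells SLC1A1 went under 2-fold (log2 0.86). With all 96 cells the log2 ratios of SLC1A3, SLC1A4 and SLC6A15 were -7.61, 6.33 and -4.63, in place of -8.64, 10.07 and -8.98. SLC38A2, not called, passed 2-fold under 3 settings. Means of log2(CPM + 1), which shift the median log2 ratio of all genes by -0.18, ended the calls of SLC1A1, SLC7A3 and SLC38A6, and summed counts those of SLC38A6 and SLC38A9. Over 22 named genes and 12 settings, 249 of 264 ratios moved by less than the SD between cells, and 15 by more. None of the 19 called genes turned its direction, and the uncalled SLC3A2 did with median-of-ratios size factors. Settings on cells that pass in all 3 experiments and on shared reads were added after seeing the data.

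The number of carriers per EC cell was 16.7 with a count of at least 5 and 18.8 after thinning to 500000 counts, and per TB cell 18.6 and 20.9. Per kb of exon the summed level was 498 CPM per kb in EC and 448 in TB, so the order of the cell types was the reverse of that in CPM. The median correlation between preparations was 0.824 by ranks in place of 0.959 in EC and 0.890 in place of 0.965 in TB. With the pairing of cells ignored (no replicate block), EQ minus EQ-75% was 2.12 carriers in EC and 1.13 in TB, against 2.16 and 1.21 within cells.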
